A study of Mus musculus with 24 samples.

Results

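The genes described here build and run the lysosome, the proton pump that acidifies it and the autophagy pathway that delivers cargo to it. They were taken by symbol from the deposited table of mouse islet mRNA counts, from a list of 51 genes, and all 51 were found among the 41549 genes of the table. They comprised 5 subunits of the V0 sector and 7 of the V1 sector of the V-ATPase, 2 accessory subunits of the pump, 3 proteins of the lysosomal membrane, 10 proteins of the lysosomal lumen, 2 transcription factors, 1 cargo receptor, 5 genes of the ATG8 family and 16 genes of the autophagy machinery. The rule used symbols alone, but the list was chosen with earlier results of these data known.

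The islet cells came from wild-type mice, and the 24 libraries fell into 4 groups of 6, with 3 libraries of each group in each of 2 batches named in the sample records. Ctr BSA and Ctr PA cells received a control antisense oligonucleotide (ASO), and αGlu BSA and αGlu PA cells an ASO against the 5′ fragment of the glutamate tRNA with anticodon CTC. By the methods of the study, dissociated islet cells were transfected with 50 pmol of ASO, and PA cells were then exposed to 0.5 mM palmitate bound to albumin for 48 h while BSA cells received albumin at 0.75% alone. All groups therefore shared the dissociation, the transfection and an LNA oligonucleotide, and no untransfected cells were part of the comparison. The methods give C57BL/6NRj mice of both sexes aged 12 to 14 weeks for islet work, without tying an age to these libraries, and replicates were independent experiments. The study states that the groups of a replicate of islet cells came from the same animal. The sample records do not say which libraries share an animal or what a batch is, so all tests treat the libraries as independent.

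The study lists an ASO for this tRNA fragment together with its target stretch, and both are shown because the αGlu groups received an ASO against that fragment. The list does not tie its ASO to these libraries. It holds 20 bases and the target stretch 21, and capitals are not used since no part was singled out.
ASO listed for the fragment: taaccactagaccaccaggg
Target stretch: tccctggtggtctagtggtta

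Lysosomes break down proteins, lipids and glycans with hydrolases that work in an acid lumen, and the V-ATPase pumps the protons: its V1 sector splits ATP on the cytosolic face and its V0 sector carries the protons through the membrane. In autophagy, the ULK1 kinase complex and a lipid kinase complex start a membrane sac, ATG9 and ATG2 feed it with lipid, and ATG proteins couple ATG8 family members to it before it fuses with the lysosome. The factors TFEB and TFE3 bind a short palindromic element in many promoters of this network, and in beta-cells the pathway also takes up insulin granules and worn mitochondria.

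RefSeq promoter windows (GRCm38.p6, 250 bases before to 50 after the start) were found for 42 of the 51 genes. The palindrome TCACGTGA, the core of the element bound by TFEB and TFE3, was searched on both strands together with the shorter E-box CACGTG that lies inside it. The core stood in the windows of 6 genes (Atp6v0d1, Atp6v0e, Atp6v1a, Mcoln1, Ctsa and Ctsd), which is 14.3% of those matched, and 1.12% of the 27025 symbols with a window held it. Those symbols include genes too low in counts to be tested here. Of the genes tested that have a window, 232 held the core and 11855 did not. CACGTG stood in the windows of 13 genes or 30.95%, beside 8.09% of all symbols. The stretches below lie before the start, read 5′ to 3′ on the strand of the gene, and carry the motif in capitals (CACGTG or, where complete, TCACGTGA). They were chosen for a complete core or, for Lamp1, for the largest number of E-boxes among the matched genes, which was 4.
Mcoln1, chr8:3500408-3500518, plus strand: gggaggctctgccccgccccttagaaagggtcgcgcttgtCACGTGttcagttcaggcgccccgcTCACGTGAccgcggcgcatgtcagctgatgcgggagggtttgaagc
Ctsa, chr2:164833721-164833772, plus strand: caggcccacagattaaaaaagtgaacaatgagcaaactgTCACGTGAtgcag
Atp6v1a, chr16:44139345-44139430, minus strand: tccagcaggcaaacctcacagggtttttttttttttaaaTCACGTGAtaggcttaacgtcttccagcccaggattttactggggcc
Ctsd, chr7:142387880-142388077, minus strand: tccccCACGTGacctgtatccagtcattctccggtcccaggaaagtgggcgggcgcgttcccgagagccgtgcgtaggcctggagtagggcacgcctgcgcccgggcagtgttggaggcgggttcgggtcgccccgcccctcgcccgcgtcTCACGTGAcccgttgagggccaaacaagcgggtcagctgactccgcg
Lamp1, chr8:13159060-13159160, plus strand: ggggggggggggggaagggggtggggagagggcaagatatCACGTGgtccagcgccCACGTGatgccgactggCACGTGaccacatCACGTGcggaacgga

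Library totals ran from 18214719 to 35001979 counts of reads on exons, and 15916 genes passed the filter on low counts, all 51 genes of the network among them. Levels of different genes are compared in TPM, which divides by transcript length, and values of the same gene between groups are given as CPM (counts of a library set to a common scale by the TMM method). Differences are log2 fold changes ± SE from edgeR's quasi-likelihood test over all 24 libraries, and a gene was called raised or lowered at a Benjamini-Hochberg adjusted p below 0.05 over all genes tested. The RNA came from whole islet cell cultures, in which fewer cells of a type and less RNA per cell cannot be told apart. The 8 beta-cell markers examined summed to between 82756 and 149826 CPM in every library, so beta-cell transcripts were abundant throughout. They were not all steady under palmitate, which raised 2 and lowered 3 of them in Ctr islets and raised 2 and lowered 2 in αGlu islets. Over all genes tested, 15.5% were raised and 14.5% lowered in Ctr islets. The median sum was 130937 CPM in Ctr BSA and 97616 CPM in Ctr PA, with overlapping libraries.

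In Ctr BSA islets, 48 of the 51 genes lay above the median of all genes tested, 10.9 TPM, and 25 lay in the top 10%. Psap, the precursor of the saposins that help hydrolases reach sphingolipids, had the highest level, with 930.2 TPM in the lowest library, a median of 1140.4 and 1338 in the highest. Sqstm1, the cargo receptor p62, followed with a median of 717 TPM, the membrane glycoprotein Lamp1 with 694 and the aspartic protease Ctsd with 481. Each of these overlapped its neighbour in the order. The gap from Ctsd (389 to 715 TPM) to the next gene, the ATG8 relative Gabarap (237 to 365 TPM), was a step without overlap. Lower in the order, neighbours overlapped down to Lipa, the acid lipase of the lysosome, with a median of 7.51 TPM. Tfeb was the lowest of all with a median of 2.13 TPM and at most 3.16, below every library of Lipa. The related factor Tfe3 had a median of 15.7 TPM, and its libraries, from 14.1 to 17.5 TPM, all lay above those of Tfeb.

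**Figure D1:**
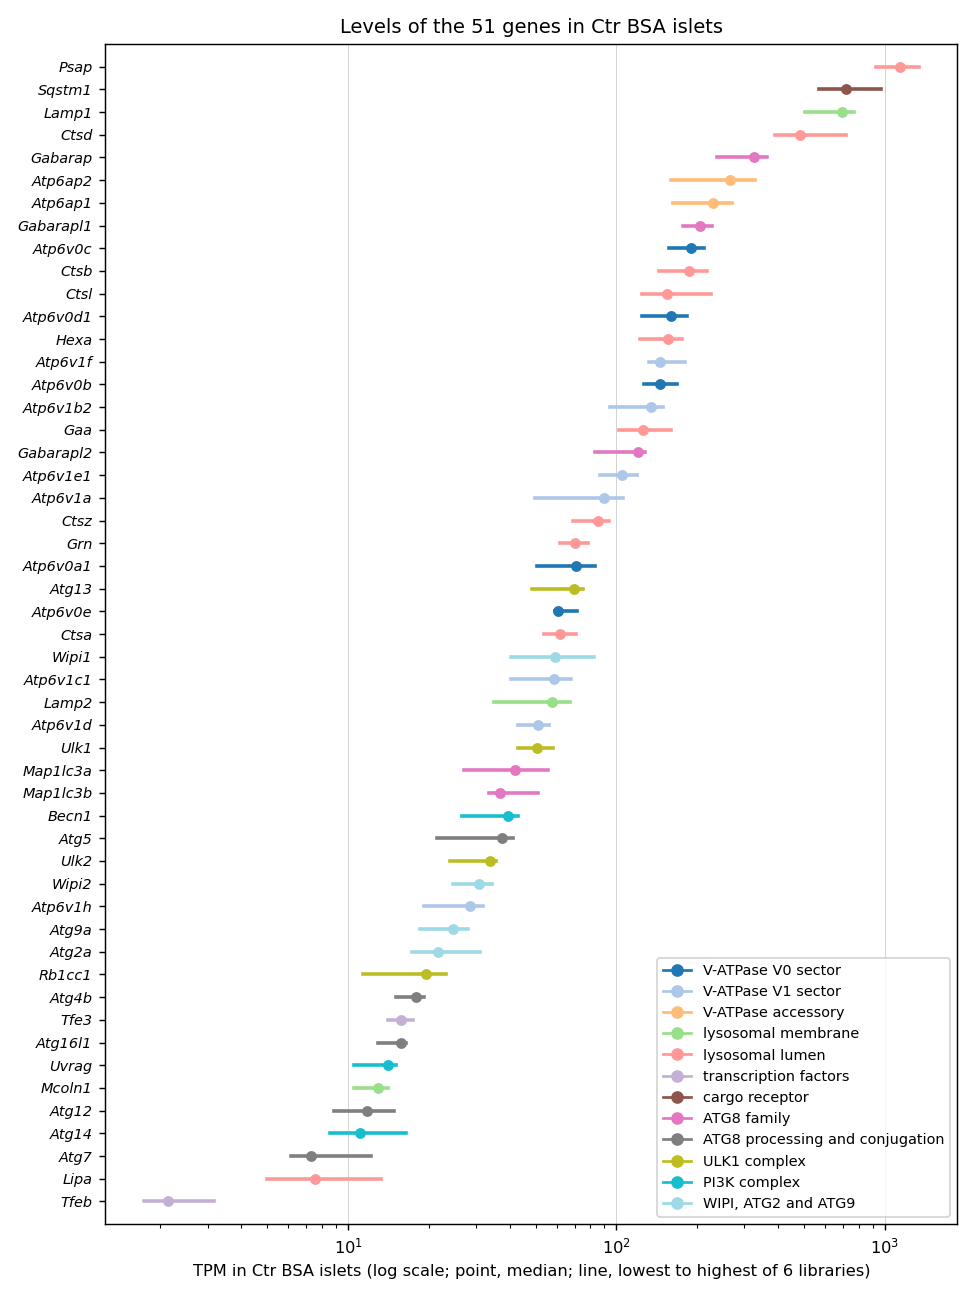
Levels of the 51 genes in the 6 Ctr BSA libraries in TPM on a log scale, ordered by mean, where points are medians, lines run from the lowest to the highest library and colours give the role. Psap stands at the top with a median of 1140.4 TPM and Tfeb at the bottom with 2.13 TPM.

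Palmitate raised most genes of the lysosome and its pump by modest amounts in Ctr islets, and the lowered genes were Tfeb and 5 genes of the autophagy machinery (Ulk1, Atg2a, Atg9a, Atg12 and Atg16l1). Of the 51 genes, 25 were raised and 6 were lowered, and 20 were not called, with a median log2 fold change of 0.16. Over all 15916 genes tested, 15.5% were raised and 14.5% lowered, and the median was 0.01. Of the 27 genes of the lysosome and the V-ATPase, 21 were raised and none was lowered by edgeR (22 had an unadjusted p below 0.05, all with a positive change, and DESeq2 likewise lowered none). Of the 16 genes of the autophagy machinery, none was raised by edgeR, 5 were lowered and 10 had an unadjusted p below 0.05. DESeq2 likewise raised none of them, and it lowered Wipi2 in addition. No change among the 51 genes reached 2-fold, since the values ran from -0.72 (Tfeb) to 0.63 (Lamp2). With a threshold of a fold change above 2 and an unadjusted p below 0.05, 5.91% of all genes passed and 0 of the 51 did (5.57% and likewise 0 of the 51 in αGlu islets), although 38 of them had an unadjusted p below 0.05, beside 40.6% of all genes. In αGlu islets, the same comparison raised 25 of the 51 genes and lowered 1, with a median of 0.17, against 14.4% of all genes raised and 14.2% lowered and a median of 0.01.

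Separation of the libraries was also examined. All 6 Ctr PA libraries lay above all 6 Ctr BSA libraries for 7 genes (Atp6v0b, Lamp2, Mcoln1, Ctsa, Hexa, Psap and Grn), beside 2.97% of all genes tested. Within each batch, where 3 PA libraries faced 3 BSA libraries, PA lay wholly above BSA in both batches for 15 genes and wholly below for 2 (Tfeb and Ulk1). Over all genes tested, 7.42% were wholly higher and 6.25% wholly lower in that way. In αGlu islets, 11 genes had PA libraries wholly above BSA (background 4.17%), 24 did within each batch (background 11.3%), and 2 lay wholly below in each batch (background 9.73%), Ulk1 and Atg16l1.

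**Figure D2:**
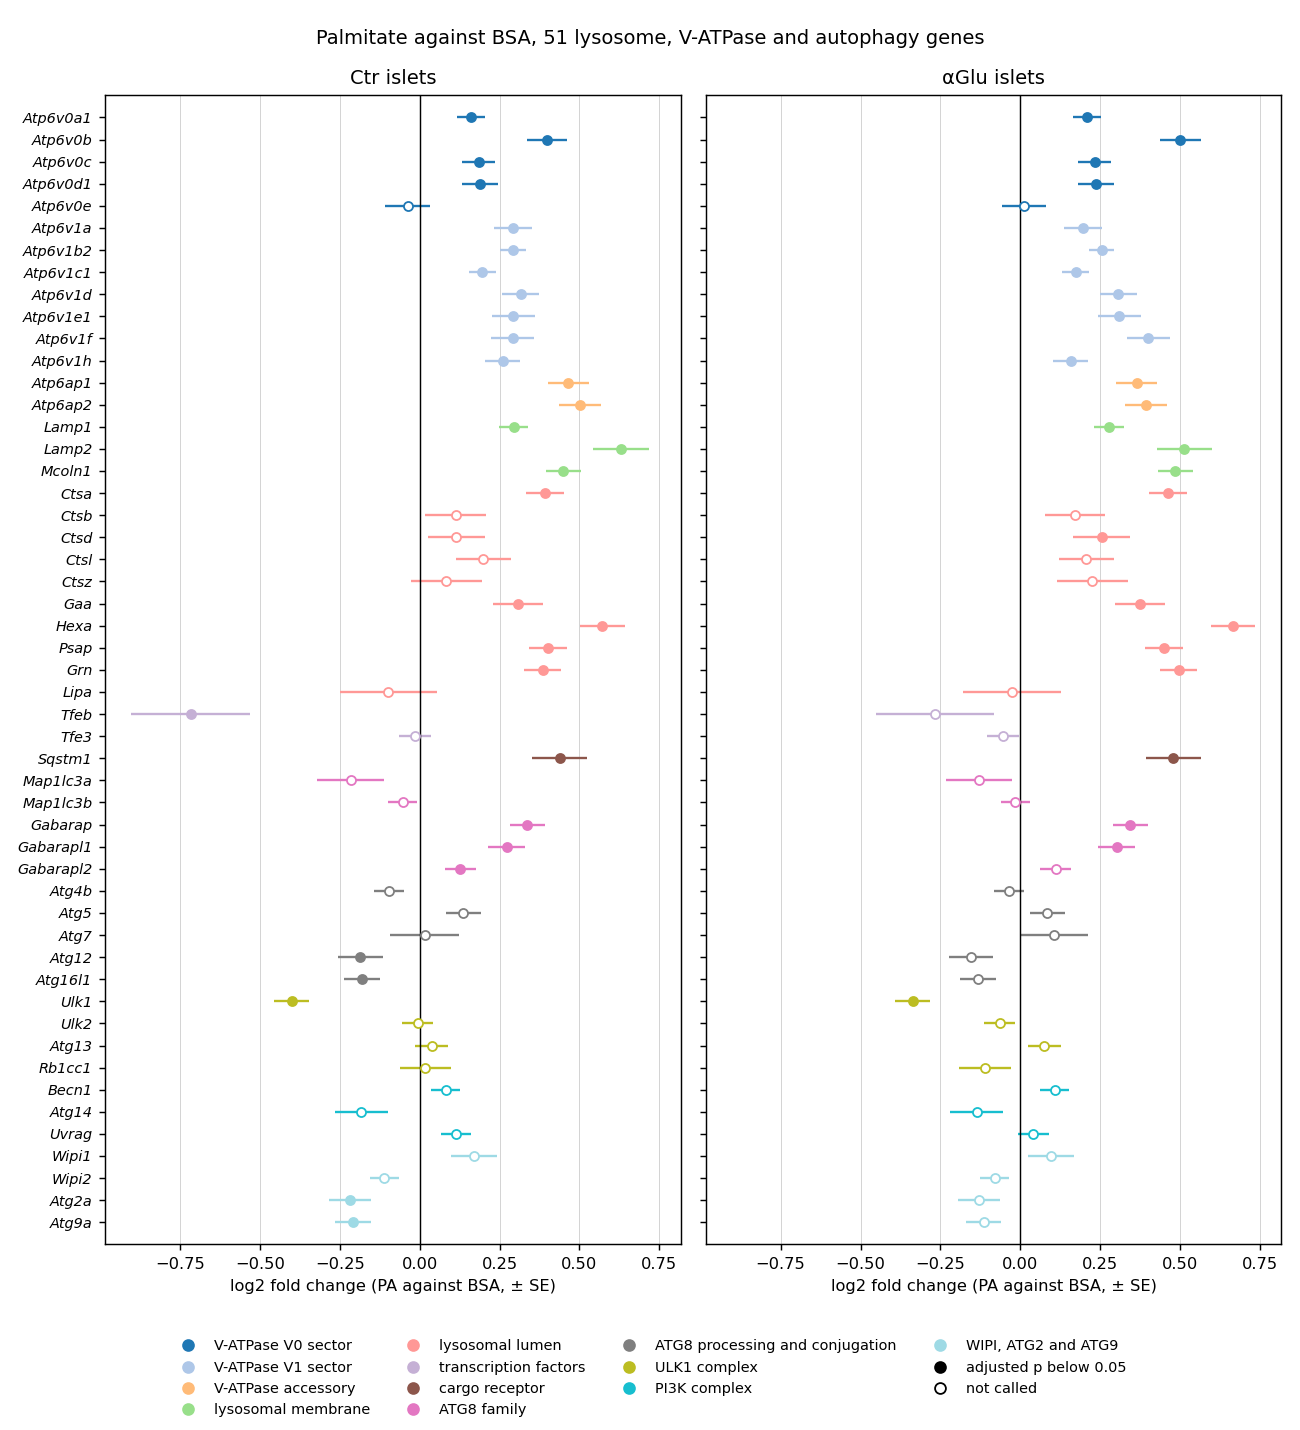
Log2 fold change of PA against BSA ± SE for the 51 genes, grouped by role from the V-ATPase at the top to the autophagy machinery at the bottom, in Ctr islets on the left and αGlu islets on the right; filled points have an adjusted p below 0.05. Of the 27 pump and lysosomal genes, 25 sit to the right of 0 in Ctr and 26 in αGlu islets, up to 0.67, with Lipa to the left in both panels and Atp6v0e in the left one, and Ulk1 sits to the left at -0.40 and -0.34.

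Of the V0 sector, which forms the proton path in the membrane, 4 of 5 genes were raised in Ctr islets. Atp6v0b, a subunit of the rotating ring, had 90.5 CPM in the lowest Ctr BSA library, a median of 119 and 125 in the highest, and 133, 148 and 163 CPM in Ctr PA. No PA library reached down to the highest BSA library. The difference was 0.40 ± 0.06 (adjusted p = 4.51e-05), and the batches fitted alone gave 0.44 and 0.34. The αGlu libraries gave 91.5, 109 and 119.6 CPM in BSA and 132, 153 and 166 in PA, a change of 0.50 ± 0.06. Smaller rises were called for Atp6v0d1 (0.19), the ring subunit Atp6v0c (0.18) and the stator subunit Atp6v0a1 (0.16), whose libraries overlapped between Ctr groups. These 3 calls were lost when the compared groups were fitted alone (adjusted p of 0.0854, 0.0734 and 0.0565) and, in both ASO groups, without the batch term, where the adjusted p in Ctr islets was 0.294, 0.219 and 0.295. Atp6v0e was the exception, at -0.04 with a 95% interval from -0.17 to 0.10 and between 76.8 and 104 CPM in all Ctr libraries.

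All 7 genes of the V1 sector, the part that splits ATP, were raised in both ASO groups, by 0.20 to 0.32 in Ctr and by 0.16 to 0.40 in αGlu islets. Atp6v1b2, a nucleotide-binding subunit, had the smallest p of them. Its Ctr BSA libraries gave 220.2, 261 and 287 CPM (lowest, median, highest) and the Ctr PA libraries 277, 310.3 and 359. The ranges touched, because the lowest PA library lay below the highest BSA library, but within each batch all PA libraries were higher. The change was 0.29 ± 0.04 (adjusted p = 5.87e-06), and the batches gave 0.32 and 0.26. In αGlu islets, 222, 255 and 302 CPM in BSA compared with 277, 308 and 337 in PA, or 0.25 ± 0.04. The catalytic subunit Atp6v1a, which carries the core motif shown above, changed by 0.29 in Ctr and 0.20 in αGlu islets. The other V1 genes were Atp6v1d (0.32), Atp6v1e1 (0.29), Atp6v1f (0.29), the regulatory subunit Atp6v1h (0.26) and Atp6v1c1 (0.20). In αGlu islets, the call for Atp6v1h (0.16, adjusted p = 0.0340) was lost in 8 of 24 fits that left out a library and with no filter on low counts (adjusted p = 0.0543). Without the batch term, Atp6v1a, Atp6v1c1 and Atp6v1f were not called in Ctr islets, nor Atp6v1a, Atp6v1b2, Atp6v1c1 and Atp6v1h in αGlu islets.

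Both accessory subunits were raised in both ASO groups. Atp6ap1, needed for assembly of the pump, had 183, 256 and 303 CPM in Ctr BSA and 281, 328 and 418 in Ctr PA. The groups overlapped by the batch 2 BSA libraries alone, and PA was above BSA within each batch. Its difference was 0.47 ± 0.06 (adjusted p = 7.18e-06). Atp6ap2, the prorenin receptor, had 200.4, 243 and 317 CPM in Ctr BSA and 295, 331 and 485 in Ctr PA, where library S23 gave the value of 485. Here too the lowest PA libraries lay below the highest BSA library, though not within a batch. The change was 0.50 ± 0.07 (adjusted p = 4.09e-06), with 0.56 and 0.43 in batches 1 and 2, and leaving out any single library kept it between 0.44 and 0.54. In αGlu islets the changes were 0.36 for Atp6ap1 and 0.39 for Atp6ap2, both called, although not without the batch term (adjusted p of 0.108 and 0.0645).

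The 3 genes of the lysosomal membrane were all raised. Lamp2, a membrane glycoprotein that also serves chaperone-mediated autophagy, showed the largest rise of the 51 genes in Ctr islets. Its libraries held 160.4, 195 and 238 CPM in Ctr BSA and 254, 293 and 433 in Ctr PA. The groups did not overlap, and the top value came from S23. The difference was 0.63 ± 0.09 (adjusted p = 7.42e-06), batch values being 0.54 and 0.71, and 0.54 was the lowest value when each library was left out. The αGlu groups were also apart, at 169.5, 193 and 229 CPM against 249, 278 and 319, a change of 0.51 ± 0.09.

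Mcoln1, the calcium channel TRPML1 of the lysosome, was less abundant per length than Lamp2, with medians of 12.9 and 57.4 TPM in Ctr BSA islets and no overlap. It gave 32.01, 36.2 and 38.4 CPM in Ctr BSA and 42.5, 49.2 and 53.2 in Ctr PA. Every PA library was above every BSA library. Its change of 0.45 ± 0.06 had an adjusted p of 1.79e-06 and was close in size in batch 1 (0.40), batch 2 (0.49) and αGlu islets (0.49 ± 0.06). Lamp1, an abundant glycoprotein that lines the membrane, had 565, 665 and 757 CPM in Ctr BSA and 746, 802 and 886 in Ctr PA. The lowest PA library, from batch 1, fell just below the highest BSA library, from batch 2. The difference was 0.29 ± 0.05 (adjusted p = 3.69e-05) in Ctr and 0.28 ± 0.05 in αGlu islets. Grtp1, on the other strand, shares exon sequence with Lamp1 but held 14576 counts over all libraries against 468840.

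Among the 10 genes of the lumen, 5 were called in Ctr islets. They were the glycan hydrolases Hexa and Gaa, the saposin precursor Psap, the protective protein Ctsa and the progranulin gene Grn. The other cathepsins and the lipase Lipa were not called there. Hexa, the alpha chain of beta-hexosaminidase that degrades gangliosides, had the smallest p of all 51 genes. Its libraries held 85.7, 122 and 129 CPM in Ctr BSA and 141, 167 and 195 in Ctr PA. The groups were fully apart. Palmitate changed it by 0.57 ± 0.07 (adjusted p = 1.61e-06), with 0.55 and 0.59 in batches 1 and 2, and by 0.67 ± 0.07 in αGlu islets, the largest rise of the 51 genes there. Psap rose from 953, 1206 and 1306 CPM in Ctr BSA to 1366, 1561 and 1629.6 in Ctr PA. Its groups did not overlap either, and the change was 0.40 ± 0.06 (adjusted p = 1.98e-05) in Ctr and 0.45 ± 0.06 in αGlu islets.

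Ctsa, which protects beta-galactosidase and neuraminidase and carries 2 core motifs in its promoter window, had 96.5, 109 and 123 CPM in Ctr BSA and 127, 145 and 159 in Ctr PA. The lowest PA library stood just above the highest BSA library. The difference was 0.39 ± 0.06 (adjusted p = 2.73e-05), and 0.46 ± 0.06 in αGlu islets. Grn, the precursor of progranulin, gave 79.99, 89.9 and 102 CPM in Ctr BSA and 104, 120.4 and 124 in Ctr PA. These ranges were separate by a small margin, with a change of 0.38 ± 0.06 (adjusted p = 2.38e-05) in Ctr and 0.50 ± 0.06 in αGlu islets. Gaa, the acid glucosidase that releases glucose from glycogen, was raised by 0.31 ± 0.08 with overlapping libraries, a call lost without the batch term (adjusted p = 0.102).

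Most proteases of the lumen were not called. Ctsd, an abundant aspartic protease with a core motif, had 329, 453 and 585 CPM in Ctr BSA and 365, 474 and 663 in Ctr PA. The groups overlapped over most of their range, and the difference of 0.11 ± 0.09 was not called (95% interval -0.06 to 0.29, adjusted p = 0.352). In αGlu islets, its 355, 404 and 529 CPM in BSA and 413, 484 and 652 in PA gave 0.26 ± 0.09, which was called (adjusted p = 0.0338). That call was lost in 6 of the 24 fits that left out a library, those without S2, S8, S10, S14, S16 or S20, with adjusted p up to 0.0924, and without the batch term (adjusted p = 0.280). The difference between the Ctr and αGlu responses of Ctsd was 0.14 (95% interval -0.11 to 0.39, adjusted p = 0.999). The cysteine proteases Ctsl (0.20), Ctsb (0.11) and Ctsz (0.08) and the lipase Lipa (-0.10) were not called in Ctr islets, nor in αGlu islets, where the values were 0.21, 0.17, 0.22 and -0.03. Intervals in Ctr reached 0.37 for Ctsl, 0.30 for Ctsb and Ctsz and 0.20 for Lipa. With 2 surrogate variables, 3 of these proteases were called in Ctr islets, Ctsd at 0.26 (adjusted p = 0.00138), Ctsl at 0.36 (adjusted p = 0.000450) and Ctsz at 0.25 (adjusted p = 0.0220). In αGlu islets, Ctsl and Ctsz were called with the surrogate variables (0.27 and 0.24) and with the compared groups alone (0.21 and 0.22). Lipa turned to 0.09 without S21 (adjusted p = 0.633). Exons of Ctsz and Ctsb overlap those of Nelfcd and Fdft1 on the other strand, and the sources do not say whether reads were counted by strand. Over all libraries, Nelfcd held 16994 counts against 29434 for Ctsz, and Fdft1 49053 against 266659 for Ctsb.

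**Figure D3:**
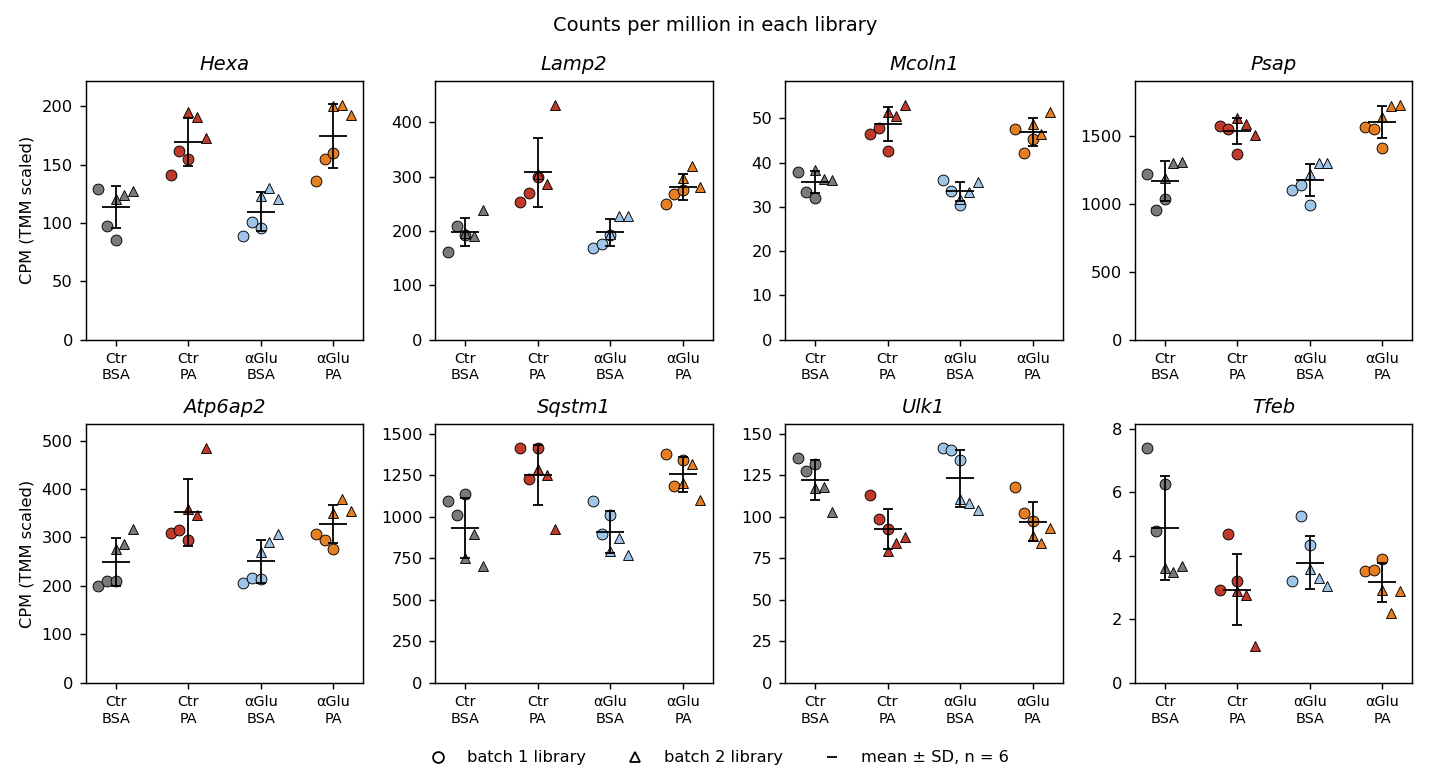
CPM scaled by TMM in each library for 8 genes in the 4 groups, with circles for batch 1, triangles for batch 2 and bars for the mean ± SD of 6 libraries. Hexa, Lamp2, Mcoln1 and Psap have PA libraries wholly above BSA libraries in both ASO groups, Atp6ap2 and Sqstm1 are also higher, and Ulk1 and Tfeb are lower in Ctr PA with overlap.

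Of the factors that bind the core motif, Tfeb was lowered in Ctr PA islets. It was a low transcript, with 32 to 174 counts a library, and gave 3.49, 4.23 and 7.41 CPM in Ctr BSA and 1.15, 2.90 and 4.68 in Ctr PA. The ranges overlapped across batches but not within either batch, and the lowest value was from S23. The difference of -0.72 ± 0.19 was called (adjusted p = 0.00484), with values from -0.83 to -0.58 when each library was left out, although neither batch alone passed (-0.77, adjusted p = 0.058, and -0.66, adjusted p = 0.162). Without the batch term the adjusted p was 0.0504. In αGlu islets, Tfeb had 3.06, 3.44 and 5.25 CPM in BSA and 2.20, 3.23 and 3.90 in PA. The change there was -0.27 ± 0.18 and not called (adjusted p = 0.30), but the difference between the responses, 0.45, had an interval from -0.06 to 0.96 (adjusted p = 0.999), so a differing response was not shown. Tfe3 held 51.6, 53.97 and 62.3 CPM in Ctr BSA and 50.9, 54.5 and 57.9 in Ctr PA. These libraries lay over each other, and the change was -0.01 with an interval from -0.11 to 0.08 (adjusted p = 0.863), and -0.05 in αGlu islets.

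Sqstm1, which links ubiquitinated cargo to the autophagosome, had 703, 953 and 1139 CPM in Ctr BSA and 926, 1270.3 and 1417 in Ctr PA. The ranges overlapped, since the lowest Ctr PA library (S23) lay below the batch 1 libraries of Ctr BSA, and within each batch every PA library was above every BSA library. The change was 0.44 ± 0.09 (adjusted p = 0.000455), or 0.31 and 0.56 in the batches alone. In αGlu islets, 769, 884 and 1097 CPM compared with 1105, 1263 and 1381, a change of 0.48 ± 0.09 with no overlap.

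In the ATG8 family, which coats the autophagosome membrane, the calls fell in the GABARAP subfamily. All 3 genes of the GABARAP subfamily were raised in Ctr islets: Gabarap by 0.34 ± 0.05, Gabarapl1 by 0.27 ± 0.06 and Gabarapl2 by 0.13 ± 0.05. Gabarapl1 had 138, 148 and 169.8 CPM in Ctr BSA and 161, 185 and 193 in Ctr PA. The ranges overlapped in Ctr (adjusted p = 0.000928) but not in αGlu islets, where 141, 158 and 165 CPM compared with 174, 191 and 209.8 and the change was 0.30 ± 0.06. The call for Gabarapl2 (adjusted p = 0.0468) was lost in 15 of 24 fits without a library, with adjusted p up to 0.125, and Gabarapl2 was not called in αGlu islets (0.11). Map1lc3b, the LC3B protein used as a marker of autophagosomes, held 96.6, 112 and 134 CPM in Ctr BSA and 92.1, 109 and 120.3 in Ctr PA. Its groups overlapped throughout, and the change of -0.05 ± 0.04 was not called (95% interval -0.14 to 0.03, adjusted p = 0.389). Its exons overlap those of Zcchc14 on the other strand, which held 46176 counts over all libraries against 70650. Map1lc3a was at -0.22 in Ctr (adjusted p = 0.121) and -0.13 in αGlu islets, also not called.

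Ulk1, the kinase that starts autophagy, was the lowered gene of smallest p. It had 103, 123 and 136 CPM in Ctr BSA and 79.5, 90.1 and 113 in Ctr PA. Batch 1 was higher than batch 2 in both groups, so the full ranges overlapped, and within each batch every PA library was below every BSA library. The difference was -0.40 ± 0.05 (adjusted p = 6.00e-06), with -0.39 and -0.43 in batches 1 and 2. The αGlu libraries gave 104, 122 and 142 CPM in BSA and 84.1, 95.3 and 118 in PA, a change of -0.34 ± 0.05 (adjusted p = 4.81e-05), the only gene of the 51 lowered there by edgeR. Its partners Atg13 (0.04), Rb1cc1 (0.02) and the related kinase Ulk2 (-0.01) were not called in Ctr islets, and their intervals reached 0.18 at most and -0.14 at least.

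In the lipid kinase complex, Uvrag (0.11), Becn1 (0.08) and Atg14 (-0.18) were not called in Ctr islets, although Becn1 was with 2 surrogate variables (0.13, adjusted p = 0.0216). Of the genes that supply and bind lipid, the lipid transfer protein Atg2a (-0.22 ± 0.07) and the scramblase Atg9a (-0.21 ± 0.06) were lowered, and Wipi1 (0.17) and Wipi2 (-0.11) were not called. The call for Atg2a was lost with 2 surrogate variables (-0.13, adjusted p = 0.137), without the batch term (adjusted p = 0.337) and with the compared groups alone (adjusted p = 0.0519), and Wipi1 was called with the surrogate variables (0.24, adjusted p = 0.0199). Atg9a shares exon sequence with Ankzf1 on the other strand, which held 15982 counts over all libraries against 30971. Of the coupling genes, Atg12 (-0.19 ± 0.07) and its partner Atg16l1 (-0.18 ± 0.06) were lowered. Atg5 (0.14), the protease Atg4b (-0.10) and the E1-like enzyme Atg7 (0.02) were not called, but Atg7 reached 0.23 with 2 surrogate variables (adjusted p = 0.0197). The call for Atg16l1 was lost with the compared groups alone (adjusted p = 0.0796) and without the batch term (adjusted p = 0.0555). The call for Atg12 (adjusted p = 0.0462) was lost in 19 of 24 fits that left out a library, with adjusted p up to 0.137, and with the scaling factors of the authors (adjusted p = 0.0511), no filter on low counts, no batch term or the compared groups alone. In αGlu islets, edgeR called none of these genes, while 5 of the 16 machinery genes had an unadjusted p below 0.05, as did 39.1% of all genes, and DESeq2 called Atg16l1 beside Ulk1. Atg12, Atg16l1 and Becn1 were called there with 2 surrogate variables and with the compared groups alone. The changes of the 4 lowered in Ctr were -0.13 for Atg2a, -0.11 for Atg9a, -0.15 for Atg12 and -0.13 for Atg16l1. The test of the difference between the ASO groups called none of the 51 genes.

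Other genes of the pathway were described with a separate list of 112 genes, of which 109 were tested. This list too was chosen with earlier results of these data known. In Ctr islets, 54 were raised and 11 lowered, where 15.5% of all genes tested were raised and 14.5% lowered. The median was 0.20 beside 0.01 over all genes tested. In αGlu islets 51 were raised and 9 lowered with a median of 0.19, where 14.4% of all genes were raised and 14.2% lowered. The lysosomal enzymes and cofactors gave 25 raised and 2 lowered of 35 in Ctr islets, the genes of the membrane, of delivery and of nutrient sensing 17 raised and 1 lowered of 31, the further V-ATPase subunits 2 and 2 of 7, and the further autophagy genes 10 and 6 of 36.

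Rragd, the GTPase that couples amino acids to mTORC1, was the raised gene of smallest p in this list. It gave 70.03, 81.8 and 94.1 CPM in Ctr BSA and 119, 126 and 139.8 in Ctr PA, wholly apart, with a change of 0.63 ± 0.05 (adjusted p = 1.43e-08). Idua, the iduronidase that degrades heparan and dermatan sulphate, changed by 0.68 ± 0.06, and Cd63, a tetraspanin of late endosomes and lysosomes, by 0.78 ± 0.08. Both were called in αGlu islets as well (0.69 and 0.80). Lowered genes of smallest p were Mtor (-0.42 ± 0.06), the growth kinase that holds ULK1 and TFEB in check, the lipid kinase Pik3c3 (-0.28 ± 0.04) and the ULK1 regulator Ambra1 (-0.27 ± 0.05). All 3 were also called in αGlu islets, at -0.43, -0.31 and -0.25. The only lysosomal enzymes lowered in Ctr islets, named after their values were seen, were the cathepsins Ctss (-2.29) and Ctsh (-0.84), of which Ctss is typical of antigen-presenting cells. In αGlu islets, 1 of the 35 lysosomal enzymes was lowered, and the lowest change was -0.84. Among the 7 further V-ATPase subunits tested, the lowest change was -2.37 in Ctr and -0.67 in αGlu islets. The test of the difference between the ASO groups called none of these genes.

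Among markers of other cell types, those of macrophages, fibroblasts and acinar cells were mostly lowered by palmitate in Ctr islets. Over all genes tested, 14.5% were lowered in Ctr and 14.2% in αGlu islets. Of 16 macrophage markers, 14 were tested, and 11 of these were lowered in Ctr PA islets, with a median of -2.17. The summed level of the 16 markers ran from 82.5 to 419.5 CPM in Ctr BSA and from 87.1 to 132 CPM in Ctr PA, of which C1qa, itself not called (-0.02), gave medians of 90.96 and 75.7 CPM. The sum of 419.5 CPM was that of S21 alone, and the next highest Ctr BSA library, S17, held 182.6 CPM. Cx3cr1 was at 0 counts in 5 of the 6 Ctr PA libraries. In αGlu islets, 1 macrophage marker was lowered and the median was -0.19, with sums from 93.3 to 180.4 CPM in BSA and 82.2 to 141 CPM in PA. The difference between the palmitate responses of the ASO groups was called for none of the 14 markers tested. Its unadjusted p was below 0.05 for 9 of them, beside 2.09% of all genes. For αGlu against Ctr, edgeR called none of the 14 either. In BSA their median was -1.08, with 1 positive and 6 at an unadjusted p below 0.05 (2.90% of all genes). In PA the median was 0.73, with all 14 positive and 2 at that level (3.38% of all genes). Of 6 Schwann cell markers, none was called between ASOs, but 5 had an unadjusted p below 0.05 in BSA (median -2.48) and 5 in PA (median -2.90). Fibroblast and stellate cell markers were lowered for 6 of 7 in Ctr (median -2.70) and 4 of 7 in αGlu islets, and acinar markers for 6 of 8 (median -1.11) and 5 of 8. In Ctr islets, 2 of 5 ductal and 1 of 3 delta cell markers were lowered. DESeq2 lowered 2 of 3 delta cell markers (Hhex and Sst) and 7 of 7 fibroblast and stellate cell markers in Ctr islets. None of 4 alpha cell (median 0.09), 6 endothelial (median -0.61) and 6 Schwann cell markers (median -0.60) was called by edgeR there, where the unadjusted p was below 0.05 for 1, 1 and 0 of them. DESeq2 lowered 1 endothelial marker (Emcn) and called none of the alpha and Schwann cell markers. Acinar sums separated the batches, with the batch 1 libraries all above the batch 2 libraries. The part of these cells in the changes of the 51 genes was not tested.

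**Figure D4:**
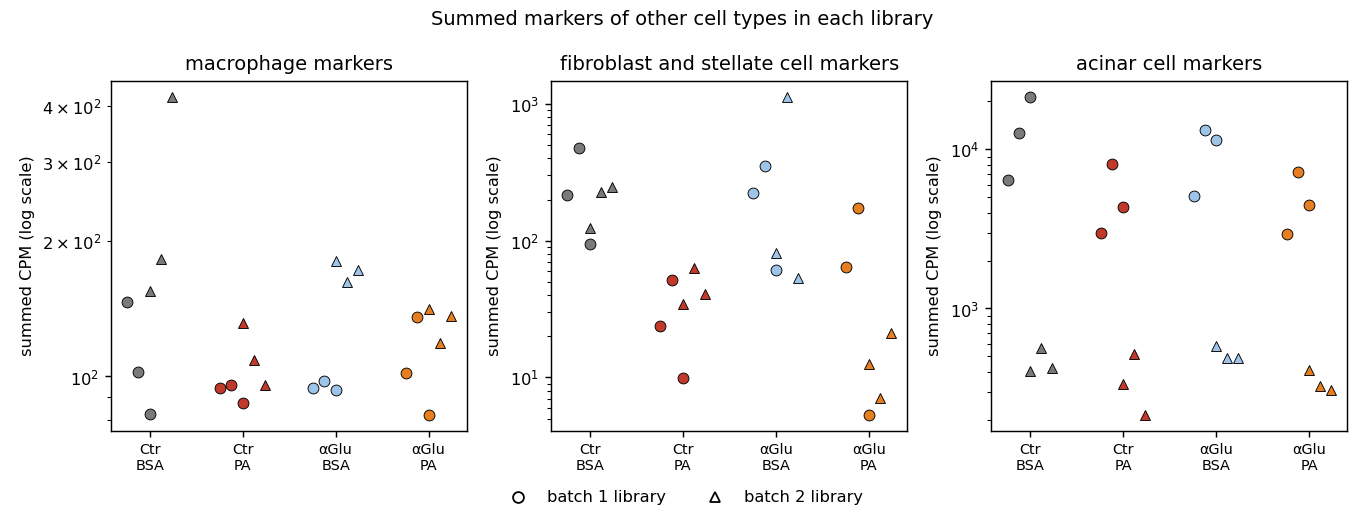
Summed CPM of macrophage, fibroblast and stellate cell, and acinar markers in each library on log scales, by group, with circles for batch 1 and triangles for batch 2. Macrophage sums reach 419.5 CPM in a Ctr BSA library and stay at or below 132 CPM in Ctr PA, and acinar sums lie higher in batch 1 than in batch 2.

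The αGlu ASO was compared with the control ASO to ask whether blocking the tRNA fragment altered these genes at rest or under palmitate. By edgeR, none of the 51 genes was called in BSA or in PA, none had an unadjusted p below 0.05, and DESeq2 called none. Over all genes tested, edgeR called 0.00% in each comparison, and an unadjusted p below 0.05 was seen for 2.90% in BSA and 3.38% in PA. DESeq2 called 8 of the 15916 genes in BSA and 30 in PA. In BSA, the genes of smallest p were Atg5 (0.11, 95% interval 0.0036 to 0.22), Grn (-0.11, interval -0.22 to 0.01) and Tfeb (-0.33, interval -0.68 to 0.03), each with an adjusted p of 1.00. The intervals of the 51 genes together ran from -0.68 to 0.22. In PA, they were Atg9a (0.11, interval 0.00032 to 0.22), Becn1 (0.08, interval -0.01 to 0.16) and Atp6ap2 (-0.10, interval -0.23 to 0.03), with an adjusted p of 0.993. The intervals of Atg5 and Atg9a leave out 0 while their unadjusted p was 0.0538 and 0.0609, because the intervals rest on a normal approximation, which is slightly narrower than the distribution used by the test. Here the intervals spanned -0.47 to 0.49, with the lower end that of Lipa and the upper end that of Tfeb.

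For Hexa, αGlu against Ctr gave -0.06 in BSA (interval -0.20 to 0.08) and 0.03 in PA (interval -0.10 to 0.17). For Sqstm1 the values were -0.03 (interval -0.20 to 0.14) and 0.01 (interval -0.16 to 0.18), and for Ulk1 they were 0.01 (interval -0.10 to 0.11) and 0.07 (interval -0.04 to 0.18).

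The difference between the palmitate responses of αGlu and Ctr islets was also called for none of the 51 genes, with none at an unadjusted p below 0.05 beside 2.09% of all genes tested, and DESeq2 called none. Its genes of smallest p were Tfeb (0.45, given above), Grn (0.11, interval -0.05 to 0.27) and Atp6v1h (-0.10, interval -0.25 to 0.05). Apart from Tfeb, the intervals of the genes ran from -0.36 to 0.50.

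**Figure D5:**
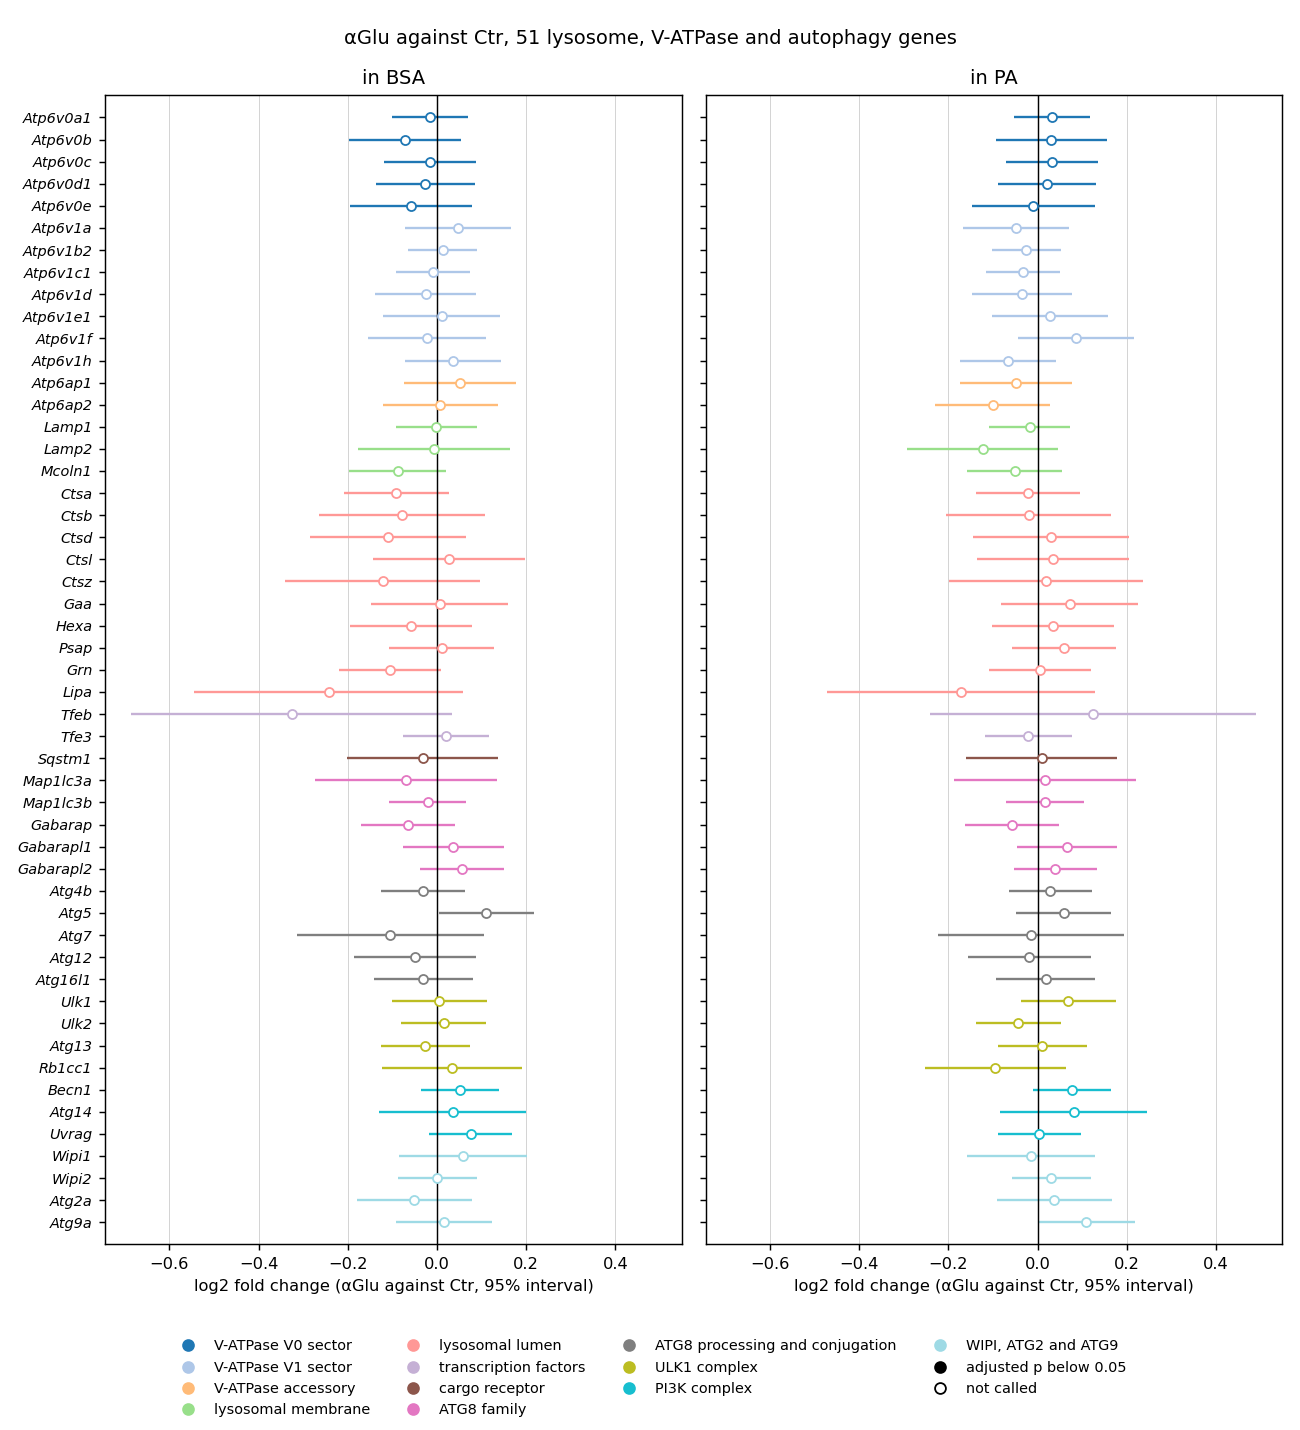
Log2 fold change of αGlu against Ctr with 95% intervals for the 51 genes, in BSA on the left and PA on the right, in the same order and colours as the palmitate plot. All points are open because no gene was called, and the widest intervals are those of Tfeb, from -0.68 to 0.03 in BSA and -0.24 to 0.49 in PA.

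The promoter core was set beside the palmitate response. Of the 6 genes with TCACGTGA, 4 were raised in Ctr islets (Atp6v0d1, Atp6v1a, Mcoln1 and Ctsa), and Ctsd and Atp6v0e were not called. Of the 13 genes with CACGTG, these 6 included, 7 were raised and none was lowered, and of the 29 matched genes without CACGTG, 15 were raised and 4 lowered. Across all genes tested with a RefSeq window, 232 held the core, and 25.0% of them were raised and 8.19% lowered with a median of 0.07. Of the 11855 without it, 15.8% were raised and 14.6% lowered with a median of 0.01. These shares describe letters in a window and carry no test of binding.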

How the data were processed

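The authors sequenced stranded mRNA libraries of islet cells and annotated and normalized the reads with a QIAGEN analysis portal (version 5.1) on GRCm38, per the methods and the submitters' processing notes. What aligner, annotation, filters and strand setting they used is not given in the sources used here. In the deposited table are raw counts of reads on exons per gene and library, which were tested, deposited TPM values, used to compare levels between genes, and deposited CPM signal values, used only for the authors' scaling factors (0.840 to 1.04). Empty cells were read as 0, since the table holds no written 0. RPKM in 24 columns and 1 line without a gene, with 0 counts, were not used.

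In R 4.3.3 with edgeR 4.0.16, counts were filtered by filterByExpr (15916 genes, 99.95% of counts), scaled by TMM and fitted with group and batch terms in all 24 libraries. Two-sided quasi-likelihood F-tests compared PA with BSA in Ctr and αGlu islets, αGlu with Ctr in BSA and PA, and both PA responses. SEs were derived from the F statistic, and 95% intervals are 1.96 SE wide on each side, a normal approximation. The script was tested on simulated data. Replicates are labelled as separate samples, and the p-values measure the spread between them. Intervals cover no bias of reads counted without molecular identifiers.

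The members, their roles, the list of other pathway genes and the markers were chosen with earlier results of these data known. Members named in full were the 12 of smallest p in Ctr islets and Tfeb, Tfe3, Lamp1, Ctsd, Sqstm1, Map1lc3b and Gabarapl1, with the 3 of smallest p in each αGlu comparison, and the 3 raised and 3 lowered pathway genes of smallest p. Alternatives were DESeq2 1.42.0, upper-quartile scaling, the authors' factors, a fit without batch, no filter or one asking for 10 counts in 12 libraries, 2 surrogate variables (sva 3.50.0), the compared groups alone, each batch alone, a fold change above 2 with unadjusted p below 0.05, and the omission of each library. Promoters came from RefSeq (GRCm38.p6), and exon overlaps from GENCODE M21 (GRCm38). Human, proteomic and small RNA data were not analysed here.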

Additional observations from a re-analysis of the deposited data

Results flagged for a closer look

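In the Ctr PA group, library S23 stood far from the other 5 for 2 of the genes named in full. It held 485 CPM of Atp6ap2, where the nearest library had 359 CPM, and 433 CPM of Lamp2, where the nearest had 306 CPM. The gap took 0.664 of the whole range of the group for Atp6ap2 and 0.710 for Lamp2, above the critical value of 0.625 for 6 libraries. In all, 72 sets of 6 libraries were examined, and chance flags about 1 in 20, a share that these 2 flags do not exceed. Without S23 the change of both genes kept its call. The same library held the lowest Tfeb value, 1.15 CPM, and the cause was not tested.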

How the results depend on the processing

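With the Ctr islets, 31 of the 51 genes were called, and 24 to 35 with upper-quartile scaling, the authors' factors, DESeq2, either other filter, 2 surrogate variables or the compared groups alone. The count fell to 19 without the batch term and to 18 in batch 1 alone and 18 in batch 2 alone, fits with fewer libraries, and to 0 with the fold change rule, which none of the 51 genes met. Calls over all genes tested fell as well. They went from 4772 of 15916 to 2312 without the batch term, 2033 of 16147 in batch 1 and 1833 of 15707 in batch 2. The fold change rule passed 941, and the other alternatives called 3281 to 5524. In αGlu islets, 26 were called, with 16 without the batch term, 17 in batch 1 alone, 19 in batch 2 alone, 0 with the fold change rule and 25 to 32 otherwise. Over all genes tested there, 4543 were called, with 2271, 1644, 1902 and 886 in those alternatives and 4074 to 5935 otherwise. Leaving out each library gave 29 to 32 calls in Ctr and 24 to 29 in αGlu islets, beside 4201 to 4902 and 3936 to 5161 calls over all genes tested. The αGlu comparisons and the difference of the responses gave 0 calls in every alternative, leave-outs included (0 to 0). This was not particular to the 51 genes, since almost no gene was called there. By adjusted p, at most 9 of 16043 genes tested were called in BSA (without S10) and 30 of 15916 in PA (DESeq2), and none for the difference. The fold change rule passed 125, 150 and 104 of 15916 genes. No called gene turned its direction in the scaling and tool alternatives or the leave-outs. Of the 31 calls, 29 were kept with upper-quartile scaling, the authors' factors and DESeq2 together, with Gabarapl2 and Atg12 lost, and all 26 in αGlu islets. Tfe3 turned to positive values in 4 leave-outs, within a range of -0.037 to 0.019, and Map1lc3b to 0.00090 with 2 surrogate variables and 0.0058 in batch 2 alone, none of them called. Ctsd in Ctr was called only with 2 surrogate variables (0.26). In single batches, Sqstm1 lost its call in batch 1 (0.31) and Gabarapl1 in both (0.28 and 0.25).

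In leave-outs, Ctr calls were lost for Gabarapl2 without S2, S4, S7, S8, S9, S11, S12, S13, S15, S16, S17, S18, S20, S21 or S23 (0.10 to 0.13), and for Atg12 without any library other than S1, S10, S17, S18 or S23 (-0.19 to -0.14). Calls were gained for Ctsl (0.26) and Becn1 (0.11) without S23, Map1lc3a (-0.27) and Wipi2 (-0.14) without S21, Atg14 (-0.23) without S1, Wipi1 (0.22) without S17, Atg5 (0.16 to 0.17) without S5 or S17 and Uvrag (0.14) without S7 or S19. In αGlu islets, Atp6v1h lost its call without S2, S6, S8, S10, S14, S16, S18 or S20 (0.14 to 0.16) and Ctsd as given in the report, and calls were gained for Atg12 (-0.15) and Becn1 (0.11) without S23, Atg16l1 (-0.13) without S1, Ctsl (0.21 to 0.25) without S12 or S23 and Gabarapl2 (0.14) without S22. No paired analysis was possible because the labels give each library its own number and do not say which share an animal, although the groups of a replicate did by the methods. What a pairing would do to the αGlu comparisons was therefore not tested. Depth limits Tfeb most, at 32 to 174 counts a library.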
